A study of Mus musculus with 2 samples.

Results

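Hox genes encode homeobox transcription factors that mark the position of a cell along the head-to-tail axis, and their mRNA was measured here in perivascular cells (PCs) cultured from the mouse aorta. The members were all gene symbols made of Hox, a cluster letter from a to d and a paralogue number, which gave 39 of the 20211 symbols in the expression tables. Of these, 11 belong to HoxA, 10 to HoxB, 9 to HoxC and 9 to HoxD, and 0 Hox symbols were listed more than once. The study asked how loss of KAI1, a tetraspanin of the cell membrane encoded by Cd82, alters PCs and vessel growth. RNA was sequenced from 1 library of wild type (WT) PCs and 1 library of PCs from Kai1 knockout (Kai1-/-) mice, both primary aortic cultures of C57BL/6 background in DMEM. The sample labels give 10% FBS for both, while the methods of the study give a higher share of serum for these cells. The methods of the study describe adult mice of either sex, but the age and sex of those behind each library, their number, the passage of the cultures, the knockout allele and the stretch of aorta taken are not given in the sources used here. With 1 library per genotype no difference has a replicate check and no p-value was computed, so that genotype cannot be told apart from animal, sex, culture or library preparation.

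Hox genes lie in 4 clusters that arose by duplication, and genes of the same number in different clusters are paralogues. Within a cluster the genes stand in the order in which they are used along the body, with low numbers at the 3′ end for anterior levels and high numbers at the 5′ end for posterior levels. Mesenchymal cells of adult tissues, those of the vessel wall included, keep much of this pattern in culture. Hox proteins bind DNA together with cofactors of the TALE class (Pbx, Meis and Pknox), and the clusters are held silent by Polycomb complexes and kept active by MLL complexes.

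The values were RPKM, reads mapped to a gene scaled by its transcript length and by the size of the library. Low values fell in steps of whole reads that gave about 29600000 reads for WT and 26700000 for Kai1-/-. Cd82 had an RPKM of 12.8 in WT and 2.62 in Kai1-/- PCs. Y-linked Ddx3y (6.56), Eif2s3y (3.17), Kdm5d (0.941) and Uty (0.479) had RPKM values above 0 in WT and were listed at 0 in Kai1-/- PCs. The mural markers Pdgfrb (RPKM 44.7 in WT, 31.6 in Kai1-/-), Cspg4 (15.4 and 8.27) and Acta2 (3823 and 2580) were present in both libraries, whereas Rgs5 (0.0630 and 0.233) was near 0 in both. Of 13 perivascular markers 7 averaged 1 RPKM or more, and all 7 were lower in Kai1-/- PCs. More than 2-fold lower were 4 of these, Tagln (633 and 307), Cnn1 (120 and 49.2), Mcam (4.90 and 0.264) and Myh11 (2.96 and 0.346). The levels of the 13 summed to 4646 and 2978. Of 8 fibroblast markers 7 averaged 1 RPKM or more, and 3 of these were more than 2-fold lower, while Col3a1 was higher (67.5 and 101). The levels of the 8 summed to 3185 and 1593. Of all genes averaging 1 RPKM or more, 7.81% were more than 2-fold lower. Of 10 endothelial markers 9 were below an RPKM of 1 in each library, with Pecam1 (0.413 in WT, listed at 0 in Kai1-/-) and Cdh5 (0.0267, listed at 0) among them, and the sums of 43.0 and 21.4 were nearly all Eng. The sums were 16.7 and 4.47 for 8 macrophage markers, carried by Csf1r (11.7 and 2.66) and Lyz2 (3.44 and 1.09), the 2 of that list averaging 1 RPKM or more and both more than 2-fold lower, with Ptprc at 0.0407 and 0.00697 and Emr1 listed at 0 in both. They were 14.4 and 3.38 for 5 Schwann and glial markers, and 0.712 and 1.03 for 6 epithelial markers. The part of these differences in the Hox values was not tested.

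WT PCs expressed Hox genes of 3 of the 4 clusters, mainly central ones (paralogue numbers 4 to 8), and most were lower in Kai1-/- PCs. In WT PCs 20 Hox genes stood at 1 RPKM or more, as did 16 in Kai1-/- PCs, and all 20 had paralogue numbers from 1 to 9. The RPKM values of all 39 genes summed to 152 in WT and 79.7 in Kai1-/- PCs, which is 52.5% of the WT level. The highest Hox gene was Hoxa5 in WT PCs, at an RPKM of 19.9 and position 3021 among all symbols, and Hoxb6 in Kai1-/- PCs, at 10.3 and position 4655. In bulk RNA, fewer cells that express a gene and less of its RNA per cell cannot be told apart.

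**Figure D1:**
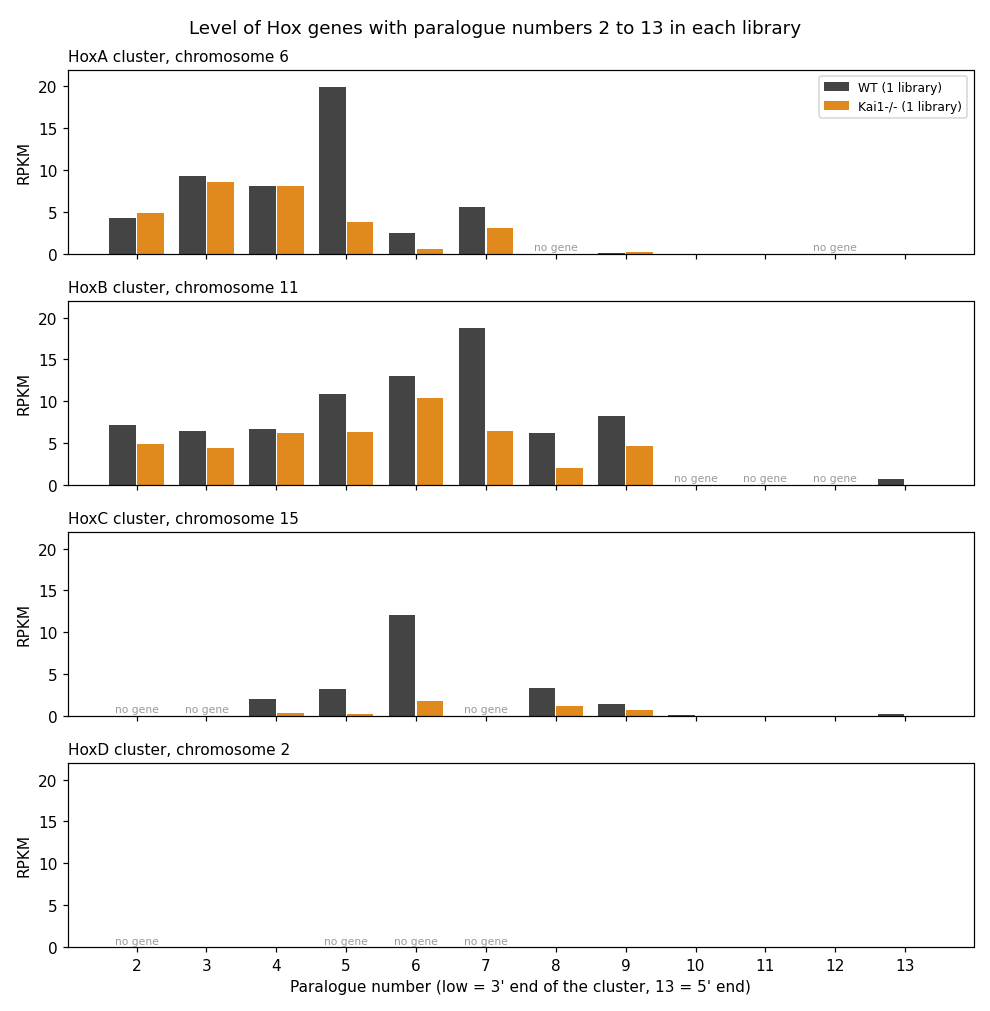
RPKM of Hox genes with paralogue numbers from 2 to 13 (bars, 1 library per genotype) in the 4 clusters, with places where the mouse has no gene marked. The highest numbers at 1 RPKM or more in WT are Hoxa7, Hoxb9 and Hoxc9, HoxC peaks at Hoxc6 (12.1 in WT, 1.72 in Kai1-/-), and no HoxD gene exceeds 0.0143.

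For the comparison, 0.1 was added to every RPKM before taking the log2 ratio of Kai1-/- over WT, so that differences of weakly expressed genes are understated. The filter, an RPKM that averages 1 or more across the pair of libraries, was passed by 20 of the 39 Hox genes. More than 2-fold lower in Kai1-/- PCs were 8 of the 20, namely Hoxa5, Hoxa6, Hoxb7, Hoxb8, Hoxc4, Hoxc5, Hoxc6 and Hoxc8, against 7.81% of the 10068 genes that passed the same filter. More than 2-fold higher were 0 of the 20, against 7.98% of all genes. The log2 ratio was below 0 for 18 of the 20, against 44.9% of all genes (all 20 with both libraries scaled to Gapdh), and its median was -0.83 for the Hox genes and 0.08 for all genes. Among the 5904 genes with a mean RPKM in the range of these Hox genes, from 1.03 to 12.6, 9.5% were more than 2-fold lower and the median was 0.02. The count of 8 was 15 of 20 under scaling to Gapdh, and 3 of 11 among Hox genes averaging 5 RPKM or more. Gapdh scaling moved the median of all genes to -0.41. The shares of all genes above are as deposited, and none is given for these settings.

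Hoxa6, Hoxc4, Hoxc5 and Hoxc9 had an RPKM of at least 1 in WT and below 1 in Kai1-/- PCs, and 6.2% of the genes at 1 or more in WT did so. These 4 passed the filter through their WT value, so that the filter itself bears on how they differ. Of the 19 Hox genes below the filter 12 were listed at 0 in both libraries and 7 were above 0 in at least 1 library. A total of 12 Hox genes were listed at 0 in WT and 18 in Kai1-/- PCs, and 0 were at 0 in WT alone. Of all 20211 symbols, 5690 were at 0 in WT and 6902 in Kai1-/- PCs, so zeros were more frequent in that library in general. For the 18 Hox genes, a count of 3 reads would have given an RPKM between 0.0308 and 0.135, so lower levels were not detectable at this depth. The values of the 20 genes above the filter rest on about 89 to 2020 reads in WT and about 14 to 662 in Kai1-/- PCs.

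**Figure D2:**
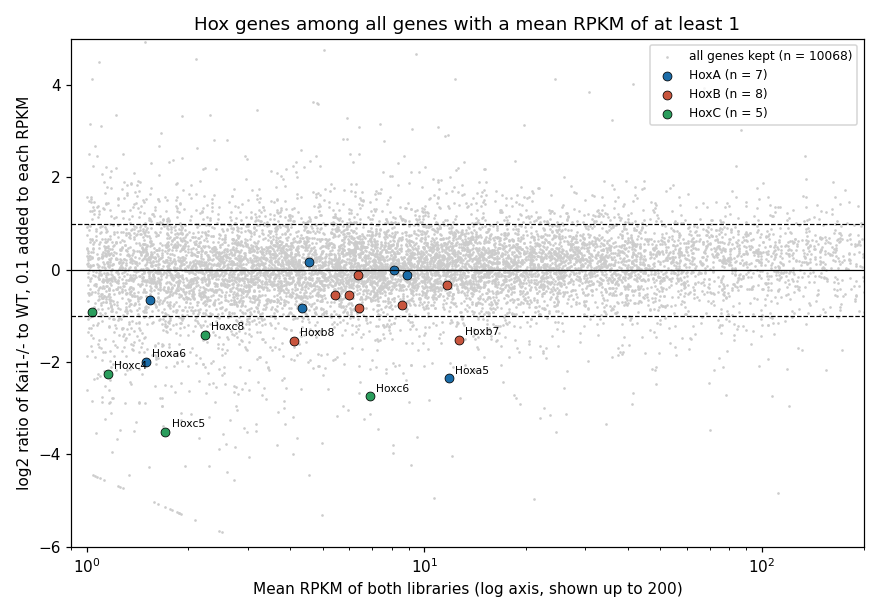
Log2 ratio of Kai1-/- to WT, with 0.1 added to each RPKM, against the mean RPKM of both libraries (log axis) for the 10068 genes that average 1 or more (grey) and the 20 Hox genes among them (coloured by cluster). The 8 labelled Hox genes lie below the dashed line at 2-fold lower, and genes beyond the axis limits are not drawn.

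The counting intervals below are 95% intervals of the log2 ratio with nothing added to the RPKM. They were computed from approximate reads per gene and cover counting error only, not the spread between animals or cultures. For 8 Hox genes the interval lay wholly below -1, for 16 wholly below 0, and for 4 it held 0. The 4 were Hoxa2, Hoxa3, Hoxa4 and Hoxb4, all with a paralogue number of 4 or less.

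**Figure D3:**
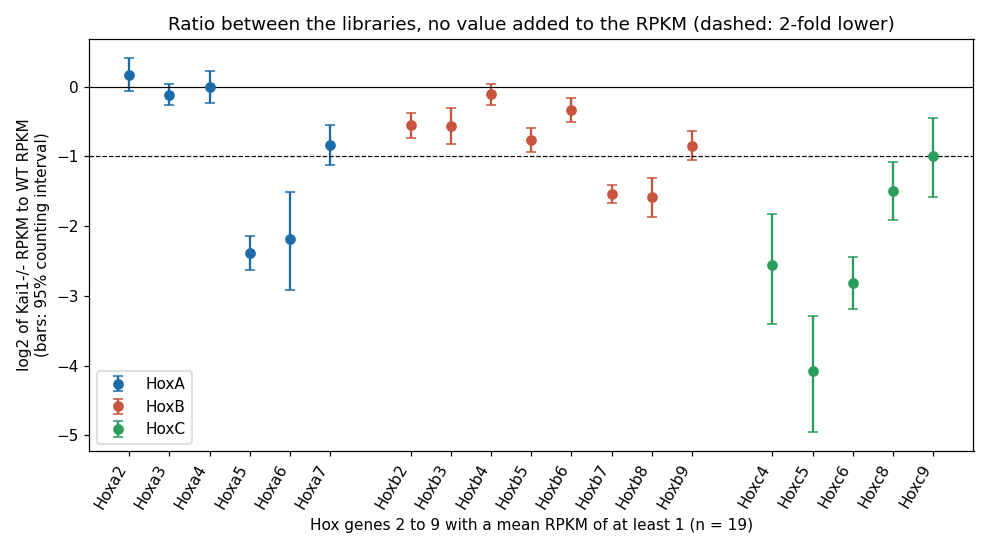
Log2 ratio of Kai1-/- to WT RPKM (points, nothing added) with its 95% counting interval (bars) for the Hox genes with paralogue numbers from 2 to 9 above the filter, grouped by cluster. Hoxa2, Hoxa3, Hoxa4 and Hoxb4 have intervals that hold 0, and Hoxc5 is lowest, with an interval from -4.96 to -3.29.

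HoxA lies on chromosome 6, and its genes from Hoxa2 to Hoxa4 had similar values in both libraries as deposited. Hoxa2, a patterning gene of the second pharyngeal arch, had an RPKM of 4.29 in WT and 4.83 in Kai1-/- PCs (log2 ratio 0.17). Hoxa3, which is needed for thymus, parathyroid and carotid development, had 9.27 and 8.56 (-0.11). Hoxa4 had 8.12 in WT and 8.13 in Kai1-/- PCs, which gave 0.00 on the log2 scale, with a counting interval from -0.23 to 0.23. As deposited, the counting intervals of these genes all held 0. With both libraries scaled to Gapdh, the log2 ratios were -0.32 for Hoxa2, -0.61 for Hoxa3 and -0.49 for Hoxa4.

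From Hoxa5 to Hoxa7, the HoxA genes were lower in Kai1-/- PCs. Hoxa5, which is needed for the lung and for the lower neck vertebrae, was the highest Hox gene of WT PCs at 19.9 and had an RPKM of 3.82 in Kai1-/- PCs (log2 ratio -2.35, interval -2.62 to -2.15). Hoxa6 had 2.46 and 0.544, a log2 ratio of -1.99. Hoxa7 had 5.56 and 3.10, a log2 ratio of -0.82 that did not reach 2-fold. The break in HoxA thus fell between Hoxa4 and Hoxa5, whose gene models are 10000 bases apart. Hoxa9 had 0.114 in WT and 0.253 in Kai1-/- PCs, from about 10 and 20 reads, and was below the filter. Hoxa10, Hoxa11 and Hoxa13 were listed at 0 in both libraries. Summed over the cluster, the RPKM was 51.6 in WT and 30.4 in Kai1-/- PCs (58.9%), with 2 of 7 genes more than 2-fold lower.

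**Figure D4:**
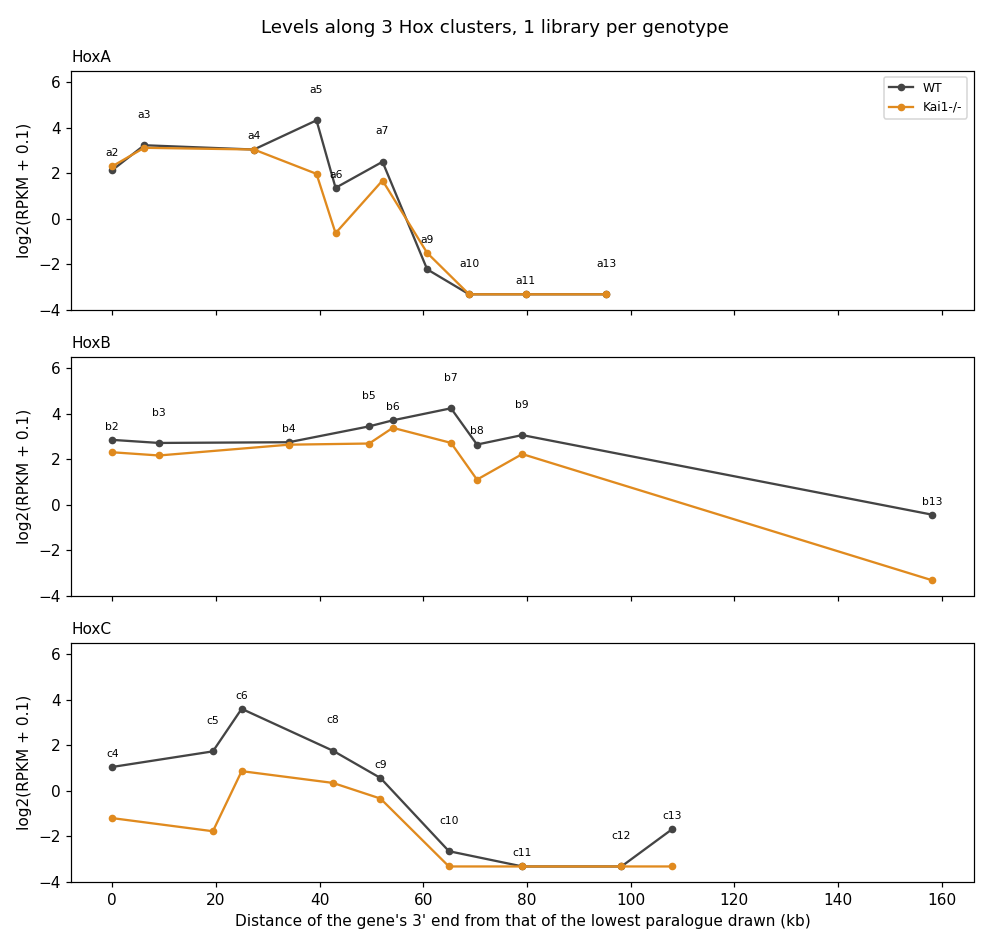
Levels as log2(RPKM + 0.1) along HoxA, HoxB and HoxC, against the distance of each gene's 3′ end from that of the lowest paralogue drawn (kb), for paralogue numbers of 2 and above, with 1 library per genotype. The HoxA lines run together from Hoxa2 to Hoxa4 and part at Hoxa5, and the HoxC lines are apart from Hoxc4 on.

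The 250 bases before the annotated start are shown for Hoxa4 and Hoxa5, the genes on either side of this break, and for Hoxb5 and Hoxc5, the paralogues of Hoxa5. The sequences were read from the mm9 genome on the strand of each gene, and capitals mark the letters CCAAT on either strand. The stretches are chr6:52141753-52142002 (minus strand) for Hoxa4, chr6:52154587-52154836 (minus) for Hoxa5, chr11:96163659-96163908 (plus) for Hoxb5 and chr15:102843996-102844245 (plus) for Hoxc5.
Hoxa4: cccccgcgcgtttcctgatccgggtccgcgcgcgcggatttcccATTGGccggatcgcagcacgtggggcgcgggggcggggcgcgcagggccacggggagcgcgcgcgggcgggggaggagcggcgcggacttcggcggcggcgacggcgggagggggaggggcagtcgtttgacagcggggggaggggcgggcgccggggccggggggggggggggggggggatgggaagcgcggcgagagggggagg
Hoxa5: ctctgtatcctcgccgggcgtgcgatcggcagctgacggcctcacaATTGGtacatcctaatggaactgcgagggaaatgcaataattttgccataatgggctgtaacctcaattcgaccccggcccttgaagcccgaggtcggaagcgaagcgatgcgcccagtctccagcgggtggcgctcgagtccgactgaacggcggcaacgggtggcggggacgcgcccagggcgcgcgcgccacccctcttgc
Hoxb5: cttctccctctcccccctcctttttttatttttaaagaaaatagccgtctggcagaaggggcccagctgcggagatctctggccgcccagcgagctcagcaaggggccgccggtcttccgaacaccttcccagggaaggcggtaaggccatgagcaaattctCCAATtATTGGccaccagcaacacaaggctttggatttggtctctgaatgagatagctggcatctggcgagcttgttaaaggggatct
Hoxc5: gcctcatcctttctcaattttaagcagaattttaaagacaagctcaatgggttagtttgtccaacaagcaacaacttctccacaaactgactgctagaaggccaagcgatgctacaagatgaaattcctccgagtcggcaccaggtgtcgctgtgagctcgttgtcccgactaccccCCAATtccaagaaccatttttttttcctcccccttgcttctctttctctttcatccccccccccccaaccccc

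The letters CCAAT began 206 bases before the start in Hoxa4, 204 in Hoxa5, 88 and 82 in Hoxb5 and 73 in Hoxc5. They were found in 23 of the 39 Hox stretches (59.0%) and in 35.5% of the 18953 gene starts examined. The letters TGATNNAT, a composite of Pbx and Hox half-sites, were in 5 Hox stretches (12.8%) and in 6.54% of all, and TATAAA in 4 (10.3%) and 11.8%. Both strands were searched, matches of TGATNNAT and CCAAT can share letters at their ends, and a match is a description of the sequence and not a binding site. GC content was 82% in Hoxa4, 63.6% in Hoxa5, 54% in Hoxb5 and 48.8% in Hoxc5, beside a median of 58.4% over the Hox genes and 55.6% over all. Hoxa4 held 41 CpG pairs, Hoxa5 28, Hoxb5 9 and Hoxc5 6, with medians of 13 and 10. No measure of chromatin or DNA methylation was among the data analysed here.

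HoxB, on chromosome 11 from 96055630 to 96229570 (mm9), was the highest cluster in both libraries and had all 8 of its expressed genes at 1 RPKM or more in Kai1-/- PCs too. Its sum was 77.9 in WT and 45.2 in Kai1-/- PCs (58.0%), with 2 of 8 genes more than 2-fold lower and all 8 log2 ratios below 0. Hoxb7, a gene of the thoracic level in the embryo, had an RPKM of 18.8 in WT and 6.49 in Kai1-/- PCs (log2 ratio -1.52), with an interval from -1.67 to -1.40. Hoxb8, a gene of the trunk that is also used in blood progenitors, had 6.16 and 2.05, a log2 ratio of -1.54 with an interval from -1.88 to -1.30. The models of these neighbours share 1069 exon bases on the same strand, 26.2% of Hoxb7 and 40.4% of Hoxb8, so the reads of one could count for the other and their values are uncertain as separate genes.

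The other HoxB genes differed less between the libraries. Hoxb4, known for expanding blood stem cells, had an RPKM of 6.62 in WT and 6.14 in Kai1-/- PCs (log2 ratio -0.11, interval -0.26 to 0.04). Hoxb6 had 12.99 and 10.3 (-0.33) and was the highest Hox gene of Kai1-/- PCs. Hoxb5, which is active in lung and gut of the embryo, had 10.8 and 6.36 (-0.75). Hoxb2 had 7.12 and 4.85 (-0.54), Hoxb3 had 6.47 and 4.39 (-0.55), and Hoxb9, the most posterior gene of the main block, had 8.25 and 4.59 (-0.83). The ratios of Hoxb4 and Hoxb6, on either side of Hoxb5, were thus the closest to 0 in the cluster. Exons of Hoxb2 (49.4%) and Hoxb3 (37.9%) overlap the antisense gene Hoxb3os, and whether the libraries kept strand is not stated. Hoxb1, the hindbrain gene at the 3′ end, was listed at 0 in both libraries. Hoxb13, which lies 74009 bases from Hoxb9 and is active in tail and prostate, had an RPKM of 0.638 in WT from about 38 reads and was listed at 0 in Kai1-/- PCs.

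HoxC, on chromosome 15 from 102751534 to 102867274, differed most between the libraries. Its summed RPKM was 22.2 in WT and 4.12 in Kai1-/- PCs, which is 18.5% of the WT level, and its share of all Hox RPKM was 14.6% and 5.16%. The log2 ratio of the sum was -2.43 (counting interval -2.65 to -2.21), beside -0.76 (-0.85 to -0.67) for HoxA and -0.78 (-0.85 to -0.72) for HoxB. More than 2-fold lower were 4 of 5 HoxC genes, and the median log2 ratio was -2.25 against -0.66 in HoxA and -0.65 in HoxB. Hoxc4, Hoxc5 and Hoxc9, like Hoxa6 in HoxA, passed the filter through their WT value, which bears on this count and median. The sums do not depend on the filter. Their intervals do not overlap between HoxC and the other clusters, but they carry no spread between cultures.

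Hoxc6, a thoracic gene of the embryo, led the cluster with an RPKM of 12.1 in WT and 1.72 in Kai1-/- PCs (log2 ratio -2.74, interval -3.19 to -2.44). Hoxc5, a gene of the lower neck level, had 3.23 and 0.192 from about 260 and 14 reads, a log2 ratio of -3.51. That value was 5.95% of the WT level, the lowest share among the 20 Hox genes. Hoxc4 at the 3′ end had 1.97 and 0.336 (-2.25), so that HoxC, unlike HoxA, was lower in Kai1-/- PCs at number 4 too. Hoxc8, which patterns the lower thorax, had 3.30 and 1.17 (-1.41). Hoxc9 had 1.38 and 0.691, a log2 ratio of -0.90, just short of 2-fold. At the 5′ end, Hoxc10 (RPKM 0.0592, about 3 reads) and Hoxc13 (0.212, about 14 reads) were above 0 in WT alone, and Hoxc11 and Hoxc12 were listed at 0 in both libraries.

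HoxD, on chromosome 2 from 74506367 to 74603200, was near 0 in both libraries. Hoxd4 had an RPKM of 0.0143 in WT, about 1 read, while Hoxd3 (0.000301) and Hoxd11 (0.000599) amounted to less than 1 read. Hoxd1, Hoxd8, Hoxd9, Hoxd10, Hoxd12 and Hoxd13 were listed at 0 in WT, and all 9 genes were listed at 0 in Kai1-/- PCs. Among the neighbours of HoxD, Atp5g3, a subunit of ATP synthase, had 642 and 730 and Mtx2, a mitochondrial import gene, 10.9 and 10.7, while Lnp (0.576 and 0.907) was below the filter.

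By paralogue number, the summed levels differed least in the anterior zone. Taken as anterior (1 to 3), central (4 to 8) and posterior (9 to 13) genes, the sums were 29.1 in WT and 23.8 in Kai1-/- PCs (81.9%), 112 and 50.4 (44.98%), and 10.7 and 5.53 (51.9%). More than 2-fold lower were 0 of 5 anterior, 8 of 13 central and 0 of 2 posterior genes above the filter. HoxC has no gene in the anterior zone. In HoxA and HoxB alone, 4 of 9 central genes were more than 2-fold lower. There the Kai1-/- sums stood at 81.9% of WT for anterior, 51.4% for central and 53.7% for posterior genes. Over all clusters, the share of anterior genes in the summed Hox RPKM was 19.2% in WT and 29.9% in Kai1-/- PCs. That of central genes was 73.8% and 63.2%. The central genes thus held most of the Hox RPKM in both libraries.

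Among the single paralogue groups from 2 to 9, which are given here, groups 2 to 4 stood above groups 5 to 9. The Kai1-/- sum was 84.8% of the WT sum for group 2, 82.3% for group 3 and 87.3% for group 4. It was 30.6% for group 5 (33.9 in WT, 10.4 in Kai1-/-), 45.7% for group 6, 39.4% for group 7, 34.1% for group 8 and 56.7% for group 9. In HoxA and HoxB together, groups 1 to 4 stood at 86.9% and groups 5 to 9 at 44.1%, a division chosen after the values were seen. Groups 10 to 13 summed to 0.910 in WT, of which Hoxb13 gave 0.638, and to 0 in Kai1-/- PCs.

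The genes of group 5 were lower in Kai1-/- PCs in all 3 clusters, with Hoxa5 at 19.2%, Hoxb5 at 58.9% and Hoxc5 at 5.95% of the WT level. Paralogues could share reads where their sequences are near-identical, so their homeoboxes, which encode the DNA-binding domain in 180 bases, were compared in the mm9 exons. Over all 42 pairs of the same paralogue number the identity ran from 67.2% to 93.9% with a median of 80.6%, and over the other 699 pairs the median was 60.6%. Runs of 30 bases shared exactly with another Hox transcript made up 0.162% of Hoxa5, 0.0691% of Hoxc5 and 0% of Hoxc6. In Hoxb7 (28.2%) and Hoxb8 (39.8%) such runs lie mostly in their overlap, and in Hoxd3 (32.4%) and Hoxd4 (43.5%) the models overlap likewise by 1725 bases.

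Genes of the TALE class did not, as a list, share the lower levels. The list held the Pbx, Meis and Pknox cofactors of Hox proteins and also Tgif1 and Tgif2. Of these 11 TALE genes 10 passed the filter, with a median log2 ratio of -0.04. Past 2-fold were 0 of the 10 in either direction, against 7.81% lower and 7.98% higher among all genes. Meis1, a partner of Hox proteins, had an RPKM of 3.44 in WT and 5.52 in Kai1-/- PCs, and Meis3, the highest of the list, 23.3 and 21.1. Pknox1 (5.42 and 2.99) and Tgif1 (12.9 and 7.53) had the lowest ratios, and these 2 genes passed 2-fold lower when both libraries were scaled to Gapdh.

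Among the Polycomb genes, which silence Hox clusters, 0 were more than 2-fold lower in Kai1-/- PCs, against 7.81% of all genes. In Polycomb repressive complex 2, which methylates histone H3 at lysine 27, 2 of 10 genes were more than 2-fold higher, against 7.98% of all genes. The median log2 ratio of the 10 was 0.40. Ezh2, the methyltransferase of the complex, had an RPKM of 5.83 in WT and 16.0 in Kai1-/- PCs, and its partner Phf19 had 0.905 and 2.21. Scaled to Gapdh, 0 of the 10 were more than 2-fold higher and the median was -0.10. In Polycomb repressive complex 1, which binds that mark and compacts chromatin, 0 of 12 genes passed 2-fold in either direction, with Cbx2 at 1.75 and 2.99 and a median of 0.23 that became -0.26 under Gapdh scaling.

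Genes that keep Hox clusters active were mostly higher in Kai1-/- PCs as deposited. Of 10 genes of the MLL complexes and the H3K27 demethylases, 2 were more than 2-fold higher, 0 lower, and the median log2 ratio was 0.57. Over all genes, 7.98% were more than 2-fold higher and 7.81% lower. Dpy30, a core subunit of the MLL complexes, had an RPKM of 21.6 in WT and 63.9 in Kai1-/- PCs, and Wdr5, another subunit, had 6.35 and 13.1. Kmt2a, which encodes MLL1 itself, had 1.26 and 1.86. Kdm6b, a demethylase that removes the Polycomb mark, had 5.34 and 3.15 and was the single member with a ratio below 0. Dpy30 stayed more than 2-fold higher under all 3 other scalings and Wdr5 under none, and with Gapdh scaling Kdm6b became more than 2-fold lower and the median was 0.08.

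**Figure D5:**
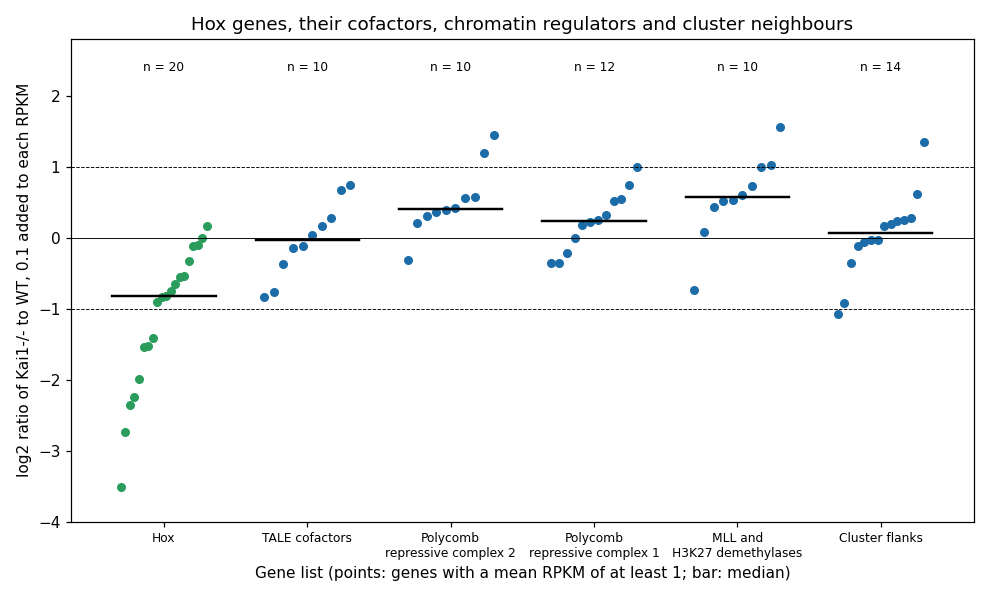
Log2 ratios of Kai1-/- to WT (0.1 added to each RPKM) of the genes above the filter in each list (points), with the list median (bar) and dashed lines at 2-fold. The Hox median is -0.83, and the medians of the other 5 lists shown run from -0.04 to 0.57.

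Genes that set axial position in the embryo were mostly silent. Cdx1, Cdx2 and Cdx4, direct activators of Hox genes in the tail bud, were listed at 0 in both libraries, as was Cyp26a1, which breaks down retinoic acid there. Aldh1a2, the enzyme that makes retinoic acid, had an RPKM of 1.39 in WT and 0.163 in Kai1-/- PCs from about 85 and 9 reads, below the filter. Cyp26b1, another retinoic acid hydroxylase, had 10.1 and 17.6, and Gdf11, a signal that activates posterior Hox genes, had 4.47 and 6.30. Evx1 and Evx2, the even-skipped genes beside HoxA and HoxD, were listed at 0 in both, and no value was analysed here for 11 non-coding genes of the clusters.

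Genes that flank the clusters were examined in the same way, and 1 was past 2-fold in each direction as deposited, both beside HoxC. Over all genes above the filter, 7.81% were more than 2-fold lower and 7.98% higher. Next to HoxA, Skap2 had an RPKM of 31.3 in WT and 28.8 in Kai1-/- PCs and Hibadh 9.89 and 11.7, with 0 of 4 genes past 2-fold. Next to HoxB, 0 of 2 genes were past 2-fold, Cbx1 with 15.02 and 17.8 and Snx11 with 10.5 and 10.3. Next to HoxC, 1 of 5 was lower (Calcoco1, 16.3 and 7.66) and 1 higher (Hnrnpa1, 75.8 and 194), while Cbx5 (8.19 and 9.18) and Smug1 (2.12 and 2.02) were near 1 to 1. Calcoco1 was past 2-fold under each other scaling too, but Hnrnpa1 was not with Gapdh scaling. Nfe2, below the filter, had 0.530 and 0.0510 from about 26 and 2 reads. Next to HoxD, 0 of 3 were past 2-fold as deposited, but Chn1 (2.85 and 1.46) was more than 2-fold lower under all 3 other scalings.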

How the data were processed

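RNA sequencing was performed by the authors on 1 library each of WT and Kai1-/- aortic PCs. The authors aligned the reads to mm9 (NCBI37) with TopHat2 2.0.9 and Bowtie, quantified RefSeq genes, and deposited RPKM values per gene and library, which come with no reads, depth or strand. The Cufflinks version, read length and library strandedness are not given in the sources used here. Genes without a symbol (38 entries) were left out, repeated symbols were averaged, and 0 columns of per-sample values were left unused. Members were all symbols of the 4 Hox clusters. The members and gene lists were chosen with earlier results of these data known. Genes were kept at a mean RPKM of at least 1, and log2((Kai1-/- RPKM + 0.1)/(WT RPKM + 0.1)) beyond 1 in size was called 2-fold, after the fold size of the study. Values in both libraries were given for Hox genes at an RPKM of at least 1 in either, and some single-gene values and sequences are not reported here, though counts and sums cover all members. Of the other lists, the rule named genes past 2-fold, those with the highest mean RPKM and the genes flanking each cluster, and further regulators were chosen after their values were seen. No test was run, since each genotype has 1 library.

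Depth was estimated from low RPKM values of 5844 genes with 1 transcript of over 800 bases: with a fragment of 200 bases, 75.2% of 815 values in WT and 73.6% of 603 in Kai1-/- lay no more than 0.15 from a whole read. Gene-level reads were taken with the longest coding transcript in GENCODE M1 and are approximate. Ratio intervals (95%) and the limit of 3 reads for a gene at 0 cover counting error only. The read-step fit and the 2-fold count were tested on simulated data. Sequences, exon overlaps and positions came from the mm9 genome and GENCODE M1. Computations used Python 3.11.15, numpy 2.4.6, pandas 2.3.3, scipy 1.17.1 and matplotlib 3.10.9. Alternatives were other pseudocounts, filters, levels, scalings and the highest of repeated symbols.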

Additional observations from a re-analysis of the deposited data

How the results depend on the processing

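Of the 20 Hox genes above the filter, 15 were more than 2-fold lower with both libraries scaled to Gapdh, which was itself higher in Kai1-/- PCs (RPKM 4238 and 5997), and 3 of 11 with a mean RPKM of at least 5. No share of all genes is given for either setting. In the other alternatives the count ran from 7 (pseudocount of 1 RPKM) to 10 (no filter), and 0 genes were more than 2-fold higher in each. The median log2 ratio was -1.31 under Gapdh scaling, where that of all genes was -0.41, -0.19 over all 39 genes without a filter, many of them listed at 0, and -0.55 with a mean of at least 5. The log2 ratio of the summed Hox RPKM went from -0.93 to -1.01 with the median of all genes set to 0, to -1.06 with upper quartiles made equal and to -1.43 under Gapdh scaling. At 5 RPKM or more stood 13 Hox genes in WT and 6 in Kai1-/- PCs. Of 120 recomputed ratios of single Hox genes, 9 crossed the 2-fold line, 7 of them under Gapdh scaling, and 4 changed sign, all of Hoxa2 or Hoxa4. Scalings of the other lists and of single clusters were added after seeing the data. No paired analysis was possible because only 1 library stands for each genotype, and for the same reason no library could be left out. Approximate reads limit the genes below the filter, whose ratios are not given where a library is at 0.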

Other observations

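Other regulators of regional identity differed in both directions, without any test. Among head and neural crest genes, Dlx2 of the pharyngeal arches was more than 2-fold lower in Kai1-/- PCs (RPKM 5.13 in WT, 2.08 in Kai1-/-), and Foxd1 was higher (1.09 and 2.37), though not under the 3 other scalings. Among limb genes Lhx9 had 3.53 and 0.280, while Emx2 (6.03 and 10.4) and Tbx15 (4.99 and 3.38) did not reach 2-fold. Among trunk mesoderm genes 2 of 10 were more than 2-fold lower, Msx2 (7.84 and 0.536) and Pax1 of the sclerotome (3.03 and 0.307), and 0 higher. Over all genes above the filter, 7.81% were lower and 7.98% higher by that measure. Osr1 (53.7 and 98.9), Prrx2 (123.1 and 156), Prrx1 (20.7 and 20.2) and Foxc2 (7.003 and 6.98) were well expressed in both libraries.

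Among heart and outflow tract genes, Hand2 had an RPKM of 4.95 in WT from about 298 reads and was listed at 0 in Kai1-/- PCs, and Gata4 had 0.148 and 2.05 from about 14 and 175 reads. Gata6 (6.53 and 9.65) and Tbx1 (2.68 and 3.78) did not reach 2-fold. Tbx20, below the filter, had 0.0326 and 0.488. The calls for Hand2 and Gata4 were the same under all 3 other scalings, and with 1 library per genotype neither has a replicate check.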
